A study of Mus musculus with 13 samples.

Results

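Cps1, Serpina1b, Cyp3a11, Bhmt, Aldh1a1 and Klkb1 are 6 genes known for their activity in liver parenchyma, and they were followed across 3 Klf1 genotypes of mouse fetal liver. They were picked by name from the authors' deposited table of called genes, where they are 6 of 2036 genes and take 8 of 3099 rows. The choice used the measured abundances, in that each had been called between livers of the D45/- and the +/- genotype, so the values of that contrast are given as a description without a test. RNA came from whole livers at 14.5 days post coitum. The +/- livers had 1 intact Klf1 allele over a null allele, the D45/- livers had the MommeD45 allele of Klf1 over a null allele, and the -/- livers had no intact allele, so all 3 groups carried at least 1 null allele and no wildtype mRNA group was analysed. Each mRNA group had 3 replicates, and per the labels globin transcripts were removed before poly(A) RNA was sequenced. KLF1 binding was measured by chromatin immunoprecipitation and sequencing in wildtype and MommeD45 livers, with 1 library for each made from 2 pooled replicates. The sources used here do not give the strain, the base change of MommeD45 or how many copies of it the chromatin livers carried, and the series title names linker 2 of KLF1 as the site of the mutations.

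Hepatocytes make most plasma proteins, detoxify ammonia through the urea cycle, and oxidise drugs, steroids and retinoids. In the fetal liver their precursors share the organ with a large population of developing red cells, which are the cells that make KLF1, a zinc finger transcription factor that binds CACCC-type DNA elements. A change in a bulk liver sample can come from more or fewer cells of a type or from more or less RNA per cell, and these cannot be told apart here. The deposited table gives 1 abundance per genotype, taken to be FPKM (fragments scaled to transcript length and to all mapped fragments), and replicate values were not analysed here, so the spread between livers and the sequencing depth are unknown. A gene enters the table when the authors' q-value for a pair of genotypes passed 0.05, and a gene with no row for a pair was either not tested or did not pass. The label of the 6 genes could not be checked against the classic hepatocyte transcripts, because Alb, Afp, Ttr and Apoa1 have 0 rows between them in the authors' deposited table. The authors' deposited table has Klf1 itself at 378 FPKM in +/-, 398 in D45/- and 34.8 in -/-.

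The stretches of DNA before 2 of the genes and before their nearest called relatives are shown because they are the pairs of related genes that moved together. The 250 bases upstream of the RefSeq start site (build GRCm38.p6) are written 5′ to 3′ on the gene's strand. Capitals mark the letters GTTAAT, part of the site of the liver factor HNF1, or CAAAGTCC, a core of sites of the liver factor HNF4, on either strand.
Serpina1b (chr12:103738190-103738439, minus strand): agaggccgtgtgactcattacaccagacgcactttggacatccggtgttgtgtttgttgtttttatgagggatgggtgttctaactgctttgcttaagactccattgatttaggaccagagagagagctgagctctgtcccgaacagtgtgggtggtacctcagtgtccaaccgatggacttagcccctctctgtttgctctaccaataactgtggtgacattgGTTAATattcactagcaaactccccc
Serpina1e (chr12:103956898-103957147, minus strand): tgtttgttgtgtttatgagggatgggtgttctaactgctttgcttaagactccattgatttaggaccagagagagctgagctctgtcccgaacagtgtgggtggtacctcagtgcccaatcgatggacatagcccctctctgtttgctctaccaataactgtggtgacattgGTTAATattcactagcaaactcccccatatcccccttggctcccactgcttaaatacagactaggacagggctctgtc
Cyp3a11 (chr5:145879855-145880104, minus strand): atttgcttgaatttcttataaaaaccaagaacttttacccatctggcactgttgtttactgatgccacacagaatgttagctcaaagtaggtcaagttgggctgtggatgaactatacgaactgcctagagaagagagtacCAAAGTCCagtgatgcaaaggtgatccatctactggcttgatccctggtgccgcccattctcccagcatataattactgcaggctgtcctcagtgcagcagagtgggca
Cyp3a16 (chr5:145469724-145469973, minus strand): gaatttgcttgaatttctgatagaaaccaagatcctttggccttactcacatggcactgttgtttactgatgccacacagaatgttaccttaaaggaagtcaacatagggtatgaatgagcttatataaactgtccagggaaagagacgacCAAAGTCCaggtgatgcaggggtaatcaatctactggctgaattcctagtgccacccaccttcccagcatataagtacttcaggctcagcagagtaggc
The HNF1 letters GTTAAT stood in both serpin sequences, and also in the RefSeq promoters of Serpina1a, Serpina1c and Serpina1d, 5 of 5 copies, so copies with and without a row share them. The HNF4 letters CAAAGTCC stood in both cytochrome sequences. Of the 6 promoter entries found for 5 of the 6 genes, 2 of them for Aldh1a1, 1 held the HNF1 letters and 1 the HNF4 letters. Of 32851 RefSeq promoters cut to the same 250 bases, 6.43% held GTTAAT or its reverse complement and 1.20% held CAAAGTCC or its reverse complement. Over the 300 bases of the RefSeq windows, Serpina1b and Serpina1e were 97.6% identical in 250 aligned columns, with 119 identical bases in a row, and Cyp3a11 and Cyp3a16 were 76.7% identical in 309 aligned columns. The copies without a row were also close to Serpina1b. Serpina1a was 92.9% identical to it in 296 aligned columns, Serpina1c 92.0% in 300 and Serpina1d 93.1% in 291. These identities are of promoter windows, and the transcripts were not compared. Reads of related genes may be shared between their rows in the authors' counting, so the values of Serpina1b, Serpina1e, Cyp3a11 and Cyp3a16 are uncertain as values of a single gene. The CACCC-type letters CCNCNCCC, searched on both strands, stood in 0 of those 6 entries, against 45.9% of all RefSeq promoters. A match or its absence in this window describes the letters alone and says nothing of what binds there. Of other letters searched on both strands, AGATAA, a site of GATA factors, was found in 1 of the 6 entries and in 9.99% of all promoters. TTGCNNAA, a subset of C/EBP sites, was found in 3 of the 6 entries and in 9.56% of all promoters. The 3 entries were those of Serpina1b and Klkb1 and 1 of the 2 of Aldh1a1. All these letters were chosen after the promoters were seen, so nothing is read from the counts beside the shares.

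In D45/- livers, 5 of the 6 genes were listed above and 1 below their level in +/- livers. The authors called 1.76% of the tests assumed for this pair, 0.663% higher and 1.1% lower, and since the 6 were chosen for these calls nothing is read from their number. Cps1, which encodes the mitochondrial enzyme that feeds ammonia into the urea cycle, had 7.85 FPKM in D45/- and 3.87 in +/- (authors' deposited table). Its log2 ratio there was 1.02 with a q-value of 0.00975, or 2.03-fold. Cps1 lies at chr1:67169640-67277022 in build mm9, the build of all loci in that table.

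Cyp3a11, a cytochrome P450 that oxidises drugs and steroids, had 4.68 FPKM in D45/- against 1.61 in +/-, with a log2 ratio of 1.54 and a q-value of 0.00792 in the authors' deposited table. Its locus is chr5:146666183-146691430 in mm9. Cyp3a16, a relative with fetal expression in mouse, lies 436 kb away and was the nearest gene with a row. The authors' deposited table gives it 14.7 against 6.96 FPKM (log2 ratio 1.08, q-value 0.0143), so the more abundant of the 2 relatives had the smaller ratio. No value in -/- livers is listed for either.

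Bhmt, which remethylates homocysteine to methionine with betaine as donor, had 35.6 FPKM in D45/- and 19.3 in +/-, a log2 ratio of 0.88 with a q-value of 0.0164 in the authors' deposited table. It was the most abundant of the 5 genes that were higher and had the smallest ratio of them. Aldh1a1, which oxidises retinal to retinoic acid and is not confined to hepatocytes, was the least abundant of the 6. The authors' deposited table gave it 2.33 FPKM in D45/- and 0.657 in +/- (log2 ratio 1.83, q-value 0.00505). Klkb1, which encodes plasma prekallikrein, a zymogen of the contact and kinin system, had 7.69 against 3.70 FPKM, a log2 ratio of 1.05 in the authors' deposited table. Its q-value of 0.0277 there was the closest of the 6 to the threshold of 0.05 in this pair, and genes outside the threshold are not listed. The mm9 loci are chr13:94386846-94407713 for Bhmt, chr19:20676472-20717952 for Aldh1a1 and chr8:46354807-46380189 for Klkb1.

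Serpina1b went the other way. It encodes 1 of the mouse copies of alpha-1-antitrypsin, a secreted inhibitor of proteases such as neutrophil elastase, and lies at chr12:104966366-104976399 in mm9. The authors' deposited table gave it 109 FPKM in D45/- and 210 in +/- (log2 ratio -0.95, q-value 0.00792). Serpina1e, another copy 209 kb away and the nearest gene with a row, was also lower in the authors' deposited table, with 6.15 against 22.2 FPKM (log2 ratio -1.85, q-value 0.00159). Serpina1a, Serpina1c and Serpina1d have no row. The deposited q-values were adjusted over all 3 pairs of genotypes together. With q recomputed within this pair, Bhmt (0.0748), Klkb1 (0.125) and Cyp3a16 (0.0661) no longer passed, and Cps1 (0.0449), Cyp3a11 (0.0366), Aldh1a1 (0.0242) and Serpina1b (0.0366) did. With a pseudocount of 1 FPKM, the log2 ratio stayed at 1 or more for Aldh1a1 (1.01) and Cyp3a11 (1.12) and was 0.86 for Cps1.

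**Figure D1:**
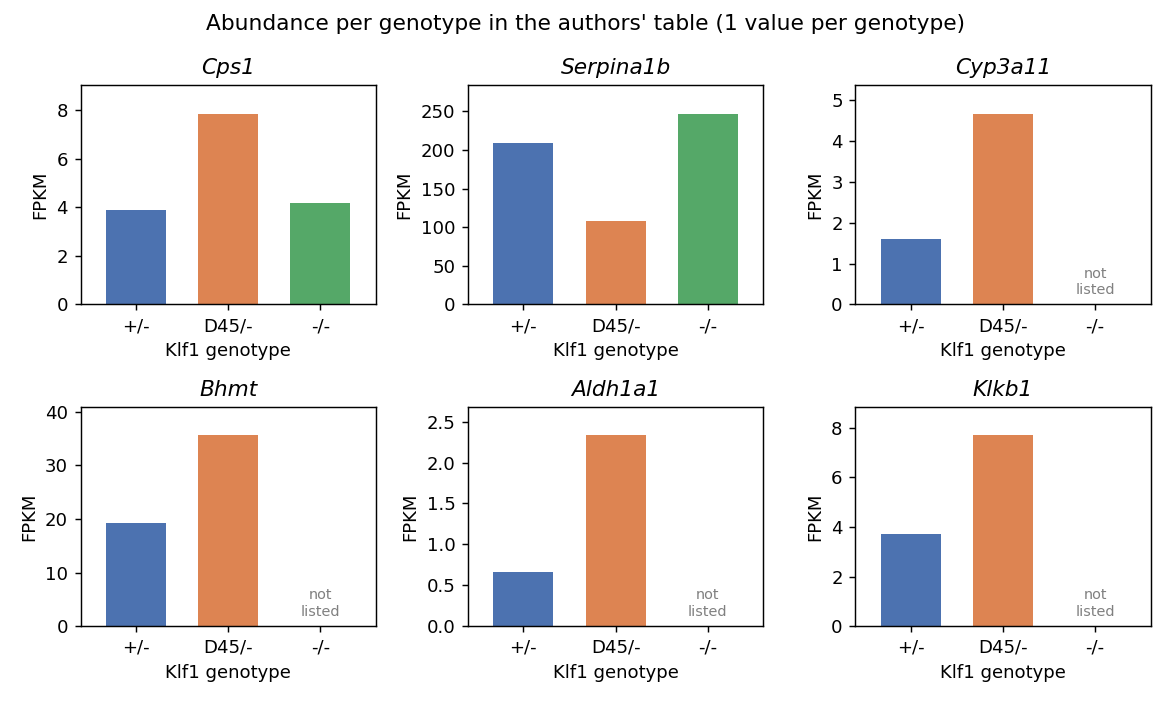
Bars show the abundance (FPKM, linear axis from 0) of each of the 6 genes in +/-, D45/- and -/- livers as the authors listed it, with 1 value per genotype and no error. D45/- was the highest of the listed genotypes for Cps1, Cyp3a11, Bhmt, Aldh1a1 and Klkb1 and the lowest for Serpina1b, and 4 genes have no listed value in -/-.

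Among all 86 genes higher in D45/- than in +/- in the authors' deposited table, ordered by log2 ratio, Aldh1a1 was at rank 16, Cyp3a11 at 22, Klkb1 at 47, Cps1 at 49 and Bhmt at 61. The median size of the log2 ratio of those 86 genes was 1.09, so Aldh1a1 and Cyp3a11 lay above it and Klkb1, Cps1 and Bhmt below. Serpina1b was at rank 97 of the 142 lower genes, whose median size was 1.12. In +/- livers the 6 genes spanned from 0.657 FPKM for Aldh1a1 to 210 for Serpina1b in the authors' deposited table, a 319-fold range.

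**Figure D2:**
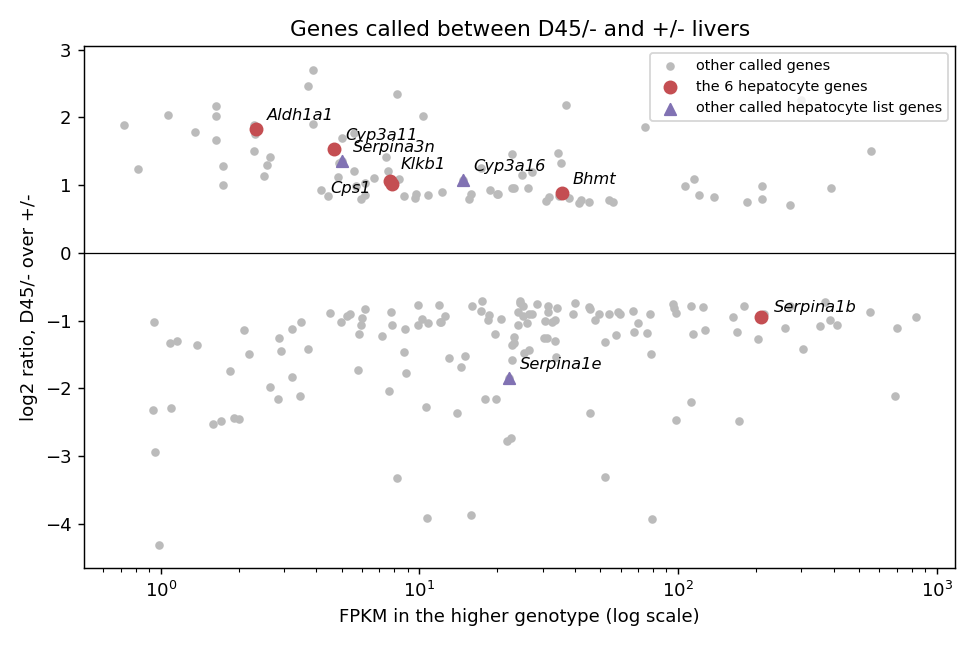
Each point is a gene called between D45/- and +/- livers, by its FPKM in the higher genotype (log axis) and its log2 ratio of D45/- over +/-, and 3 genes listed at 0 in 1 genotype are not drawn. The 6 genes are red, with Serpina1b at -0.95 below the line and the other 5 between 0.88 and 1.83, and Serpina3n, Cyp3a16 and Serpina1e are triangles.

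Values in -/- livers are listed for Cps1 and Serpina1b, through their comparison with D45/-. In that pair the authors called 8.37% of the tests assumed, 3.48% higher and 4.89% lower in D45/-. In the authors' deposited table Cps1 was at 4.18 FPKM in -/- and 3.87 in +/-, and D45/- at 7.85 lay above both (log2 ratio over -/- of 0.91, q-value 0.0293). Serpina1b was at 247 FPKM in -/-, and its 109 in D45/- lay below both other genotypes in the authors' deposited table (log2 ratio -1.19, q-value 0.00159). Serpina1e had the same order, with 23.2 FPKM in -/- and a log2 ratio of -1.92 (q-value 0.00159) in the authors' deposited table. The D45/- libraries enter both pairs, so the 2 comparisons of a gene are not independent. Cps1 and Serpina1b were chosen through calls that used the same D45/- values. Their place above or below both other genotypes, and their q-values in this pair, are thus a description and no separate support.

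Between -/- and +/- livers 0 of the 6 genes were called by the authors' cuffdiff q-value, where 13.8% of the tests assumed were called, 7.0% higher and 6.78% lower. The absence of a call does not show that levels were equal, and unadjusted p-values of genes without a row are not listed. For Cps1 the deposited FPKM give a log2 ratio of -/- over +/- of 0.11, and for Serpina1b of 0.24. For Cyp3a11, Bhmt, Aldh1a1 and Klkb1 no -/- abundance is listed, so whether D45/- differed from -/- cannot be said.

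Genes with patterns most like these were looked up among the 984 of 1001 genes with values in all 3 genotypes that reached 1 FPKM in the highest genotype and were above 0 in each, by the distance between their pairs of log2 ratios (D45/- over +/- and -/- over +/-), a likeness over 3 genotypes alone. Closest to Cps1 were Dzip1 (distance 0.21), the glutathione transferase gene Gsta4 (0.24) and the kinase gene Rps6ka1 (0.33). The authors' deposited table gave Gsta4 138 FPKM in D45/-, 78.3 in +/- and 77.5 in -/-. Closest to Serpina1b were Gm5506 (distance 0.25), the heat shock gene Hspa1a (0.70) and Socs3 (0.79), a feedback inhibitor of cytokine signalling. For Socs3 the authors' deposited table gives 1.74 FPKM in D45/-, 5.79 in +/- and 6.39 in -/-.

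The pathways to which the 6 genes belong were followed with 10 lists of hepatocyte genes, 181 genes in all, of which 26 have a row. Of the urea cycle and nitrogen list, Cps1 was the 1 gene of 11 with a row, and of the contact, kinin and coagulation list Klkb1 was the 1 of 19 called between D45/- and +/-. Bhmt was the 1 called of 15 methionine, betaine and one-carbon genes in that pair, and Aldh1a1 the 1 of 18 retinoid and aldehyde genes. Cyp3a11 and Cyp3a16 were called among 26 cytochrome P450 and drug metabolism genes, both higher. The serpin and protease inhibitor list had 3 of 20 called, with Serpina1b and Serpina1e lower and Serpina3n, an acute phase serpin, higher in D45/-, with 5.02 against 1.97 FPKM, a log2 ratio of 1.35 and a q-value of 0.00702 in the authors' deposited table. In the other 4 lists, plasma carriers and apolipoproteins (21 genes), acute phase (14), hepatocyte transcription factors (17) and glucose and amino acid metabolism (20), 0 genes were called by cuffdiff between D45/- and +/-. Leaving out the 6 genes, 3 of 175 list genes were called in this pair, or 1.71%, which is near the 1.76% over all tests and is no result about the lists. The number of list genes that the authors tested is unknown.

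The list genes called between -/- and +/- livers did not include any of the 6. With 13.8% of all tests assumed called in that pair, 0 of 6 is no result about them. Between -/- and +/- the authors called 15 of 181 list genes higher (8.29%) and 1 lower (0.552%), beside 7.0% higher and 6.78% lower over all tests assumed. The higher share is near the overall one and is no result about the lists, and how many list genes were tested is unknown. Igfbp1, a secreted binding protein of insulin-like growth factors, had 904 FPKM in -/- against 87.1 in +/-, with a log2 ratio of 3.38 and a q-value of 0.00159 in the authors' deposited table. Of the retinoid list, on which Aldh1a1 stands, 4 of 18 were higher in -/-. They were Adh1 (10.6 against 4.37 FPKM), Dhrs3 (32.0 against 16.4), Lrat (2.12 against 0.617) and Cyp26b1 (0.709 against 0.254) in the authors' deposited table. Other genes higher in -/- in the authors' deposited table were Hp, which encodes the hemoglobin scavenger haptoglobin (39.7 against 20.2 FPKM), the fibrinogen gene Fgg (274 against 160) and Pros1, which encodes the anticoagulant protein S (5.61 against 2.70). The inter-alpha-inhibitor family gene Itih4 (25.7 against 13.8), the tyrosine catabolism gene Fah (34.2 against 18.1) and the choline oxidising gene Chdh (6.29 against 2.01) were also higher in the authors' deposited table. So were Serpina3n (6.92 against 1.97), Lcn2 (94.2 against 50.04) and the transcription factor genes Cebpb (24.1 against 10.6) and Onecut2 (1.43 against 0.689) in the authors' deposited table. Mthfd1, an enzyme of folate metabolism, was the 1 lower gene, at 55.1 against 94.1 FPKM there. Markers of other cells moved in the same pair. The authors called higher in -/- 6 of 9 granulocyte, 8 of 10 megakaryocyte, 4 of 12 endothelial, 3 of 12 stellate and stromal, 2 of 8 cholangiocyte and hepatoblast and 2 of 14 macrophage markers, and 10 of 12 erythroid markers lower. The list genes are not all confined to hepatocytes. As examples from those named above, Lrat is known from stellate cells and Lcn2 from neutrophils. The part of other cells in these levels was not tested.

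Set against -/- livers, D45/- livers had 12 of 181 list genes lower (6.63%) and 1 higher, Cps1 (0.552%), beside 4.89% lower and 3.48% higher over all tests assumed. Cps1 and Serpina1b, which are in these counts, were chosen with their D45/- levels known. Leaving out the 6 genes, 11 of 175 list genes were lower (6.29%) and 0 higher. How many list genes were tested is unknown, and nothing is read from these counts. Igfbp1 was at 74.6 against 904 FPKM and Hamp, the gene of the iron hormone hepcidin, at 0.376 against 16.4 in the authors' deposited table, where the latter had a q-value of 0.0364. Cth, which makes cysteine in the transsulfuration branch that, like Bhmt, draws on homocysteine, had 5.94 against 13.3 FPKM, a log2 ratio of -1.16 with a q-value of 0.00792 in the authors' deposited table. Adh1, Dhrs3, Cyp26b1, Hp, Lcn2, Cebpb and Onecut2 completed the genes lower in D45/-, with log2 ratios from -1.94 to -0.83 in the authors' deposited table, beside Serpina1b and Serpina1e.

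**Figure D3:**
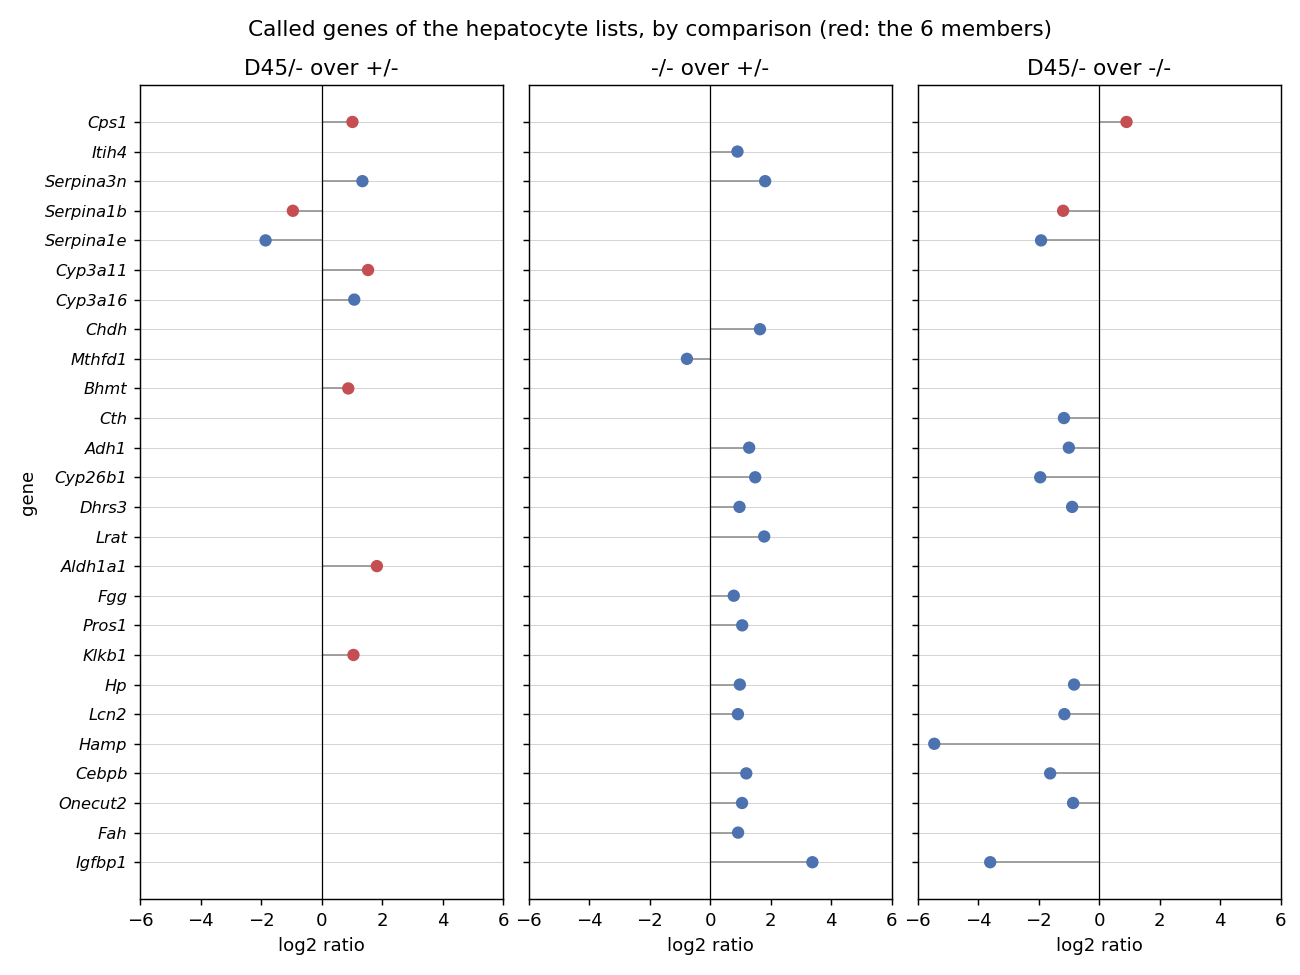
Points show the log2 ratio of each hepatocyte list gene called in D45/- over +/-, -/- over +/- and D45/- over -/-, with the 6 genes in red and the other list genes in blue, and an empty row means no call. All 6 red genes appear in the panel of D45/- over +/-, and of them Cps1 and Serpina1b alone in the panel of D45/- over -/-. No red gene appears in the panel of -/- over +/-, which holds 16 blue points.

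Markers of other cells in these livers were counted in the same pair, D45/- against +/-. The authors called 0 of 12 endothelial, 0 of 12 stellate and stromal, 0 of 9 granulocyte and 0 of 8 cholangiocyte and hepatoblast markers by cuffdiff. Over all tests assumed for this pair, 1.76% were called, so lists this short would hold few calls and these counts are no result about the markers. How many of the markers were tested is unknown. Of 14 macrophage markers, the authors' deposited table lists Clec4f as higher (log2 ratio 1.70) and Marco as lower (-1.53). Of 10 megakaryocyte markers, Itgb3, Plek and Ppbp were higher and 0 lower, and with q recomputed within the pair none of these 3 passed (0.136 for Itgb3, 0.0564 for Plek and 0.0593 for Ppbp). Of 12 erythroid markers Icam4 was lower in the authors' deposited table (log2 ratio -1.12). In D45/- against -/- livers, the other pair in which Cps1 and Serpina1b were called, markers moved too. There 5 of 9 granulocyte, 6 of 12 stellate and stromal, 4 of 12 endothelial, 2 of 8 cholangiocyte and hepatoblast and 1 of 10 megakaryocyte markers were lower in D45/-. Of the 14 macrophage markers 3 were lower and 1 higher, and 10 of 12 erythroid markers were higher. Over all tests assumed for that pair, 4.89% were called lower and 3.48% higher in D45/-. Over the markers with values in all 3 genotypes, the 10 erythroid ones summed to 6905 FPKM in +/-, 5539 in D45/- and 1971 in -/-. The 4 megakaryocyte ones summed to 175 FPKM in +/-, 295 in D45/- and 425 in -/-. The 3 endothelial ones summed to 31.5 FPKM in +/-, 35.0 in D45/- and 68.2 in -/-. The 5 granulocyte ones summed to 1041, 1121 and 2230 FPKM in the same order of genotypes, and the 3 macrophage ones to 17.9, 11.4 and 31.2. The 2 stellate and stromal ones summed to 4.64, 4.40 and 10.7 FPKM, and the 2 cholangiocyte and hepatoblast ones to 3.08, 2.33 and 8.30. Apart from the erythroid sum, each was highest in -/-, and no listed marker of these sums was at 0. A marker has all 3 values only if it was called in at least 2 pairs. The endothelial, granulocyte, stellate and stromal, and cholangiocyte and hepatoblast markers entered through calls in which -/- was higher. The erythroid ones entered through calls in which -/- was lower. The megakaryocyte markers were also called with -/- higher, and Itgb3, Plek and Ppbp have a D45/- value only through calls with D45/- above +/-. Of the macrophage markers, Marco and Siglec1 entered through calls with -/- higher, and Clec4f through calls with D45/- higher. The order of the genotypes in these sums was thus shaped by the choice of markers, and nothing is read from it. Within the macrophage sum, Clec4f had 1.55 FPKM in +/-, 5.03 in D45/- and 2.30 in -/-. The part of these markers in the levels of the 6 genes was not tested.

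No KLF1 peak of the authors lay within 10 kb of the 6 genes, in wildtype (0 of 6) or MommeD45 livers (0 of 6). Of all 2036 genes with a row, 16.1% had a wildtype peak and 7.37% a MommeD45 peak within 10 kb. Of the 879 genes lower in -/- than in +/-, 29.7% had a wildtype peak that near. The genes were chosen with earlier results of these data known, which may include the peaks, so the distances are a description with no test.

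Bhmt had the nearest peaks. A wildtype peak at chr13:94158628-94158884 (mm9) lay 228 kb from it, with 5.13-fold enrichment over background in the authors' list, and a MommeD45 peak overlapped it with a summit 18 bases away and 5.30-fold enrichment. Klkb1 was the other gene whose nearest peaks overlapped between the lists, at 705 kb, with a wildtype peak of 6.17-fold and a MommeD45 peak of 2.93-fold enrichment. In the wildtype list the nearest peak was 437 kb from Cyp3a11, 1296 kb from Serpina1b, 3278 kb from Aldh1a1 and 3873 kb from Cps1. In the MommeD45 list these distances were 3349, 4441, 4318 and 6769 kb. The wildtype list holds 1203 peaks and the MommeD45 list 485, so distances in the latter are larger for genes at large. The median over all listed genes was 276 kb to a wildtype peak and 920 kb to a MommeD45 peak. Bhmt alone of the 6 lay nearer than the median to a wildtype peak, and Bhmt and Klkb1 to a MommeD45 peak. Fold enrichments are the authors' values, and the nearest wildtype peaks held ranks 299 to 1115 of 1203 by that measure. The nearest MommeD45 peaks held ranks from 41 (Cyp3a11) to 482 (Klkb1) of 485, so that of Klkb1 was among the weakest of its list.

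**Figure D4:**
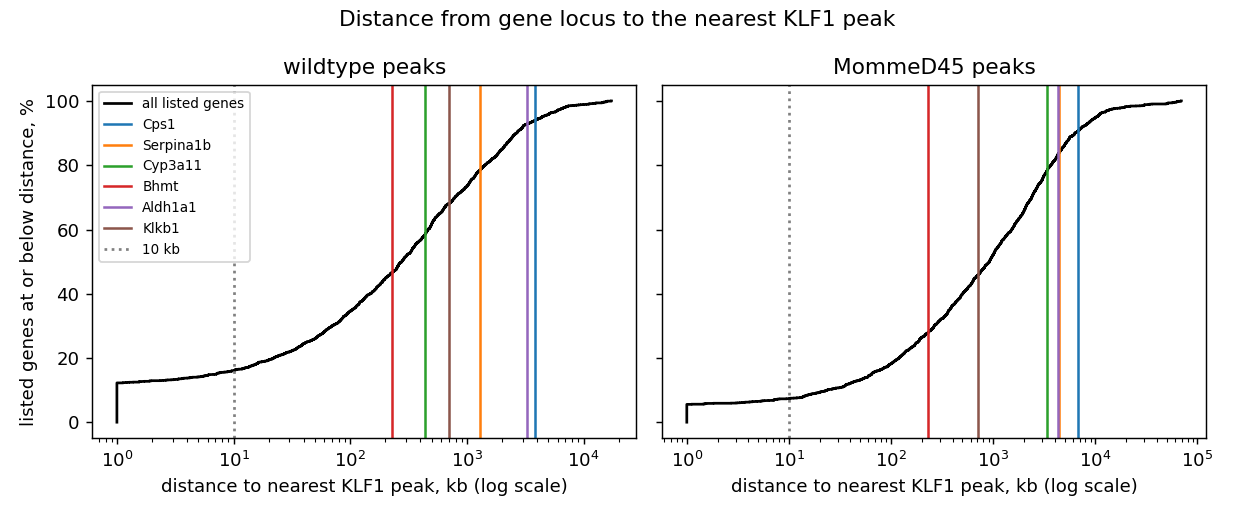
The black curves give the share (%) of all 2036 listed genes whose nearest KLF1 peak lies at or below a distance in kb (log axis, with distances under 1 kb drawn at 1 kb), for wildtype (left) and MommeD45 (right) peaks. Coloured lines mark the 6 genes, which lie right of the dotted 10 kb line, from 228 to 3873 kb for wildtype peaks and from 228 to 6769 kb for MommeD45 peaks.

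Of the 26 hepatocyte list genes with a row, 1 had a wildtype peak within 10 kb, Lcn2, and 0 had a MommeD45 peak that near.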

How the data were processed

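mRNA of 9 fetal liver libraries (3 per genotype) and 4 chromatin libraries were measured, grouped by sample titles. Abundances deposited by the authors are 1 value per genotype from cuffdiff, named in the design text, and are read as FPKM from its column layout; per the submitters' processing notes, reads were mapped to mm9 and TopHat2 2.0.10 was among the tools. Options, annotation and release of cuffdiff: not given in the sources used here. Per the file headers, the deposited table adds log2 ratios (no pseudocount), a test statistic, which is a score, p-values and q-values; ratios were turned to first-named over second-named genotype. Deposited peaks come from Bowtie2, Picard and MACS2 on mm9, per the deposited description sheet, with pileup signal, fold enrichment and −log10 p and q. Nothing states that replicates were separate animals, so the authors' p-values may measure technical spread.

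Tests per comparison (12965) were taken as an even share of the 38894 implied by the deposited p and q, an assumption. Locus starts were moved to 1-based. Peaks within 10 kb of a locus counted as near, and summits of 1 peak were merged. The recovery of the number of tests and the q within a list were tested on a simulated list, and the nearest distance on a small example. The other steps were not tested in this way. The simulated list was cut at its own q, and the deposited lists by a q over all 3 pairs. No new test across genes was possible without replicate values. The 6 genes, lists, tests and letter motifs were chosen with earlier results of these data known, the motifs after the promoters were seen. Named were the 6 genes, called list genes, Klf1 and the 3 genes of closest pattern. Promoters came from RefSeq GRCm38.p6 and were used for letters only. Python 3.11.15, numpy 2.4.6, pandas 2.3.3 and Biopython 1.88 were used. Alternatives covered q under 0.01, q within a comparison, minimum FPKM of 1 and 5, pseudocounts of 1 and 0.1, a minimum log2 ratio of 1 with and without a pseudocount, other peak distances and a minimum fold enrichment of 10.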

Additional observations from a re-analysis of the deposited data

How the results depend on the processing

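With q recomputed within each comparison, Cps1, Cyp3a11, Aldh1a1 and Serpina1b still passed between D45/- and +/-, and Bhmt (0.0748) and Klkb1 (0.125) did not; the same 4 passed at a q under 0.01. Requiring a log2 ratio of at least 1 with a pseudocount of 1 FPKM left 2 of the 6 genes in that pair (Aldh1a1 and Cyp3a11) and 1 of 2 in D45/- against -/- (Serpina1b); a q under 0.01 also left 1 there. For the 181 list genes, a q under 0.01 left 7 of 16 calls in -/- against +/- and 7 of 13 in D45/- against -/-, and a log2 ratio of at least 1 with a pseudocount of 1 FPKM left 5, 7 and, in D45/- against +/-, 4 of 9. The same minimum on the deposited ratios without a pseudocount, chosen after seeing the data, left 9, 8 and 7 of these list genes in that order, 4 of the 6 genes in D45/- against +/- (Aldh1a1, Cps1, Cyp3a11 and Klkb1) and 1 in D45/- against -/- (Serpina1b). The stricter rules keep fewer rows by construction. Of the list genes, 0 had a wildtype peak within 1 kb or with a fold enrichment of at least 10, 2 had one within 50 kb and 3 within 100 kb, and 1 had a MommeD45 peak within 100 kb; the 6 genes had 0 at each distance tried. No paired analysis was possible because the abundances analysed here are 1 value per genotype and carry no replicate number, which also left no replicate to leave out. Depth is unknown, and low abundances such as that of Aldh1a1 rest on an unknown number of reads.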
